A study of Mus musculus with 2 samples.

Results

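Shared intronic peaks are stretches of open chromatin that were called as peaks in both kidney libraries and that lie deep inside genes, away from promoters and exons. They were chosen from the 159560 peaks of the Enl-WT library by position, with 1 limit on how many barcodes had a count. Each overlaps an Enl-T1 peak by at least 1 bp, sits on an autosome wholly inside the body of a protein-coding gene, touches no exon of any annotated gene, and lies over 2 kb from every protein-coding transcription start site (TSS) of GENCODE M21 on mm10. Of the 159560 Enl-WT peaks, 111688 overlapped at least 1 of the 130027 Enl-T1 peaks, 109533 of those were autosomal, 49541 lay inside protein-coding genes, 34791 touched no exon and 32634 were far enough from a TSS. Another 17 were dropped because 15% or more of the barcodes of both libraries had a count there, which left 32617 peaks paired with 32783 Enl-T1 peaks. Just inside that limit was a peak in Zfp423, open in 21.31% of Enl-WT and 14.85% of Enl-T1 barcodes, and just outside it was a peak in Atoh8, at 21.83% and 15.37%.

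The data are single-nucleus ATAC-seq, in which a transposase cuts accessible DNA and each cut is assigned to the nucleus of its barcode. The kidneys came from E15.5 mouse embryos. Enl-T1 kidneys were Enl flox-T1/+ Wt1 GFPCre/+ and Enl-WT kidneys were Enl +/+ Wt1 GFPCre/+, so both genotypes carry the Wt1 GFPCre knock-in, which takes the place of 1 Wt1 allele, and they differ in the Enl allele. T1 is a small in-frame insertion in the YEATS domain of ENL found in Wilms tumour, switched on by Cre in cells of the Wt1 lineage, which covers nephron and stromal progenitors but not the ureteric epithelium. The sex of the embryos and the number of embryos in each library are not given in the sources used here.

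There was 1 library of each genotype, so no value below has a biological replicate. Every interval covers counting error only, and a difference between the libraries cannot be told apart from a difference between the 2 genotypes. The Enl-WT library held 9628 barcodes, with 138176616 counts over its peaks, and the Enl-T1 library held 13376, with 110265593. Of these, 9472 and 12635 nuclei with 2000 to 100000 counts were kept, with medians of 14789.5 and 8753 counts, and 169 barcode sequences occurred in both libraries. Nuclei were clustered on peaks other than the shared intronic ones, and the clusters were named from marker genes. That gave 2155 Enl-WT and 3979 Enl-T1 nephron progenitor-like nuclei, 2922 and 4773 stroma-like, 854 and 1617 ureteric epithelium-like, and 756 and 595 endothelial-like nuclei. The early nephron epithelium-like, podocyte-like, proximal tubule-like and distal tubule or loop-like classes held 318 to 677 Enl-WT nuclei each and 9 to 180 Enl-T1 nuclei, so their levels are given for Enl-WT and no ratio was formed in them.

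The nephron progenitor-like class is made of clusters that are nearly all from 1 library. Cluster 0 held 0 Enl-WT and 3892 Enl-T1 nuclei, cluster 4 held 1348 and 74, and cluster 10 held 807 and 13. Six2, the defining progenitor gene, was among the 10 genes with the highest lead over the median cluster in each of the 3. Cluster 0 had 5 of 9 nephron progenitor markers raised, with a mean log2 rise of 0.78 and of 0.54 for the immune markers as the next class, cluster 4 had 8 of 9 raised and cluster 10 had 5 of 9. Stroma-like clusters 7 and 8 were also mostly Enl-T1, with 11 and 36 Enl-WT nuclei against 1057 and 854, while clusters 1, 3 and 5 held 346 to 1557 nuclei of each library. Of the ureteric epithelium-like clusters, cluster 2 held 711 Enl-WT and 919 Enl-T1 nuclei and cluster 9 held 143 and 698. Cluster 9 had a mean log2 rise of 0.81, with 0.70 for the immune markers as the next class. A cluster mostly of 1 library may be that library and not a cell type, which applies to every nephron progenitor-like ratio below and in part to the ureteric epithelium-like ones.

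Many introns hold enhancers, which are short stretches where transcription factors bind and displace nucleosomes. Enhancers tend to be open in few cell types, whereas promoters of broadly used genes are open in most, so peaks of this kind are where cell identity is usually read in ATAC-seq data. ENL, the product of Mllt1, reads acylated lysines on histones through its YEATS domain and belongs to complexes that carry out transcription elongation. In the embryonic kidney, progenitors of the cap mesenchyme become epithelial nephrons, the stroma surrounds them, and the ureteric epithelium branches into the collecting ducts. A gene that holds a peak is called its host here, which does not make it the gene that the peak acts on.

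Sequences of 9 of these peaks are printed here because the results below turn on them. Each is the 300 bp window at the centre of the overlap of the paired peaks, from the GRCm38.p6 (mm10) reference on the + strand, 5′ to 3′, in lower case with capitals at the letters of any of 23 motifs that were searched on both strands. The capitals mark matching letters only. The first 3 lines are peaks led by 1 class of Enl-WT nuclei, namely Glrb by nephron progenitor-like, Cntn6 by stroma-like and Adam19 by endothelial-like nuclei.
Glrb, chr3:80853106-80853405: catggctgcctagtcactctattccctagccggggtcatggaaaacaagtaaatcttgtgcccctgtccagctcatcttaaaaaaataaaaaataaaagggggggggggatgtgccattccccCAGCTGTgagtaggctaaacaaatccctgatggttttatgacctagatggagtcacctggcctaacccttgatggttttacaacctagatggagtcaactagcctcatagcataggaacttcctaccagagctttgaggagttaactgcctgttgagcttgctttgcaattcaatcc
Cntn6, chr6:104758084-104758383: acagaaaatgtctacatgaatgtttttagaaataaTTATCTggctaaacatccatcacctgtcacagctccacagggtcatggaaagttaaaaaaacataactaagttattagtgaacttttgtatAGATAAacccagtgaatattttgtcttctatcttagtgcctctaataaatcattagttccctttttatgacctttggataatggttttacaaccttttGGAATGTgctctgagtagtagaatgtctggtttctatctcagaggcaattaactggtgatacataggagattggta
Adam19, chr11:46077687-46077986: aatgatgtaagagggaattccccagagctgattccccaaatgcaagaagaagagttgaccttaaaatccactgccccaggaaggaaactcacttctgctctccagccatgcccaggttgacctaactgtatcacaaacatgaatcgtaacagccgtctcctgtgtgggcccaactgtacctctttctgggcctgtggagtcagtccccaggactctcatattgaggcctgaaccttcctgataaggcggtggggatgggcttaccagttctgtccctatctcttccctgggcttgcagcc

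The capitals are a TCF21 E-box in Glrb and GATA and TEAD letters in Cntn6, and the Adam19 window holds none of the 23 motifs. The next 6 lines are peaks at the ends of the rankings by ratio between the libraries. Kcnt2 and Oxr1 were highest and the peak in Cwc27 and Srek1ip1 and that in Bicra lowest in Enl-T1 relative to Enl-WT in nephron progenitor-like nuclei, Fam114a1 was highest over all nuclei, and Adamts16 was lowest in stroma-like nuclei.
Kcnt2, chr1:140409550-140409849: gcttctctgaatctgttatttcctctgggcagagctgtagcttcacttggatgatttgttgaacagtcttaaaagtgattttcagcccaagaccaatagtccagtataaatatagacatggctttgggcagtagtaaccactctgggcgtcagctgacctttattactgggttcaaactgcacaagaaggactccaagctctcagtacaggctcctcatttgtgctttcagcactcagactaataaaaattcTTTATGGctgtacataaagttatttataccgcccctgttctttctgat
Oxr1, chr15:41691502-41691801: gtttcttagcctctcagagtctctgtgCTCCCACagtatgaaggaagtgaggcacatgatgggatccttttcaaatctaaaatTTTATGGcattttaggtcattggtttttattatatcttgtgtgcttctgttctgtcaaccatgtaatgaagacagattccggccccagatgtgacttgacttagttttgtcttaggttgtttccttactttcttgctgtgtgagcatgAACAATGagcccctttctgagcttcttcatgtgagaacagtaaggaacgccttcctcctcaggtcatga
Fam114a1, chr5:65011996-65012295: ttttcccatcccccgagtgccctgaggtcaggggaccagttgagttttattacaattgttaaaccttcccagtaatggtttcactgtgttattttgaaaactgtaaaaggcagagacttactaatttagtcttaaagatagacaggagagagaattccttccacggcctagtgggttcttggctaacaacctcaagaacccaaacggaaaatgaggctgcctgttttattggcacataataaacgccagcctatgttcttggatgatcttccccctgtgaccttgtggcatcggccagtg
Cwc27 and Srek1ip1, chr13:104799765-104800064: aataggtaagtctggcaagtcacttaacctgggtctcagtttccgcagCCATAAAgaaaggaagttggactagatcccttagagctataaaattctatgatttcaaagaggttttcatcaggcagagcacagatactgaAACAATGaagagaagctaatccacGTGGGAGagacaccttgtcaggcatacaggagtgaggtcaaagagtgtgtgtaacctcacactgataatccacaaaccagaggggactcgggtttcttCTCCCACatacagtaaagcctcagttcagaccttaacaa
Bicra, chr7:16033674-16033973: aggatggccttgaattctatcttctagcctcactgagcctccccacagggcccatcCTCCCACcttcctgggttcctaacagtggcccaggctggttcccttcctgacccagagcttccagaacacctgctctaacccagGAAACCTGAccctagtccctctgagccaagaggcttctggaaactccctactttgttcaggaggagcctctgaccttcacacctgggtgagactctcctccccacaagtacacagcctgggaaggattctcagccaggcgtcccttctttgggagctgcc
Adamts16, chr13:70794139-70794438: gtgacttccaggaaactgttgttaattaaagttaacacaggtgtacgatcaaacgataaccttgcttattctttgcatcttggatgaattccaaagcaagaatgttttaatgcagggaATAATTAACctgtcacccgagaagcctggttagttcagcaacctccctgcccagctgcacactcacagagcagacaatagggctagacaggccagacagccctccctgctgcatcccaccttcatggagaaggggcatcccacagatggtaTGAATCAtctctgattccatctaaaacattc

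Posterior HOX letters are in Kcnt2, Oxr1 and the Cwc27 and Srek1ip1 window, WT1 letters in Oxr1, Bicra and (at 2 places) the Cwc27 and Srek1ip1 window, SOX letters in Oxr1 and the Cwc27 and Srek1ip1 window, SIX2-type letters in Bicra, HNF1 and AP-1 letters in Adamts16, and none of the 23 motifs in Fam114a1. So a peak past 2-fold in either direction can hold or lack the letters that differ between the sets as a whole.

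The peaks were short and spread over many genes. Their median width was 967 bp for the Enl-WT and 899 bp for the paired Enl-T1 peaks, and 31579 of the 32617, or 96.82%, were paired 1 to 1 with an Enl-T1 peak. In 21679 pairs each peak covered at least 80% of the other. The median distance to the nearest protein-coding TSS was 31.75 kb, with 5% nearer than 3.81 kb and 5% farther than 220.0 kb. In the transcript used for numbering, 9277 peaks (28.44%) lay in the first intron and 22026 (67.53%) in a later one, and 682 lay inside 2 or more genes. There were 6687 host genes, of which 2373 held 1 such peak and 894 held 10 or more, the latter with 17314 of the peaks between them.

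The hosts with the most peaks were long genes. Gm20388, an annotated model that spans 4.435 Mb of chromosome 8 and runs over other genes, held 340. Fgfr2, the receptor tyrosine kinase for several fibroblast growth factors, held 144 over a model of 2.961 Mb that also runs over other genes, Lrmda held 88, Auts2 86 and Rbms3 82. Their median log2 ratios of Enl-T1 over Enl-WT in all nuclei lay between 0.02 and 0.24, the highest in Lrmda, where 61 of 88 peaks were above 0.

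Most shared intronic peaks were open in few nuclei, though the limit on open barcodes is part of how they were chosen. After each nucleus was thinned to 2500 fragments, the median peak had a count in 1.03% of 9064 Enl-WT nuclei and in 1.06% of 11071 Enl-T1 nuclei. Before thinning, the medians were 2.61% and 1.79%, in the order of the libraries' depths. Shared promoter peaks, which lie within 2 kb of a TSS and were held to the same limit on open barcodes, had thinned medians of 3.21% and 3.17%, and shared intergenic peaks 0.99% and 1.07%. The limit left 16664 of 19987 shared promoter peaks, without the most widely open ones, and 46593 of 46748 intergenic peaks. The 2 libraries therefore differed by less than 0.1 percentage point at the median intronic peak. The promoter peaks within the limit were open in about 3 times as many nuclei. Of all counts in peaks, the shared intronic peaks took 15.3% and 16.69% in Enl-WT and Enl-T1, and of the counts in shared peaks 17.24% and 17.58%. Levels below are CPM, the usual scaling of counts to a fixed total, here the total in shared peaks of the same class and library, over the whole peak.

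Shared intronic peaks differed between classes of nuclei far more often than promoters did. Among the 4 large classes, 14970 of 32609 peaks (45.91%) were at least 2-fold higher in 1 class than in any other in Enl-WT, compared with 15.6% of 16664 shared promoter peaks and 45.16% of 46584 intergenic ones. Over all 8 classes of Enl-WT, stroma led the most peaks, 7165 of 32616, followed by nephron progenitors with 5374, podocytes with 4586, endothelium with 4513, ureteric epithelium with 3818, distal tubule or loop with 2493, proximal tubule with 2484 and early nephron epithelium with 2183. A lead of 2-fold or more was held by 3504 stroma-led, 1658 endothelial-led, 1485 nephron progenitor-led, 996 ureteric epithelium-led and 830 podocyte-led peaks, and by 295, 126 and 120 of those led by proximal tubule, distal tubule or loop and early nephron epithelium. Of all shared autosomal peaks, stroma led 20.4%, nephron progenitors 13.9%, podocytes 13.7% and endothelium 14.8%. Of the intronic ones they led 22.0%, 16.5%, 14.1% and 13.8%. Leads of 2-fold or more by stroma, endothelium, nephron progenitors, ureteric epithelium and podocytes were in 9.78%, 4.28%, 3.69%, 2.77% and 1.81% of all. In the intronic peaks they were in 10.7%, 5.08%, 4.55%, 3.05% and 2.55%, so the shares were mostly near those of all. Counts per class differ, and the smaller classes give noisier levels.

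The peaks with the largest lead in each class had low levels elsewhere. In nephron progenitor-like nuclei of Enl-WT, the peak of Glrb, which encodes a glycine receptor subunit, was at 8.75 CPM, and its highest level in another class was 0.68 CPM. Peaks in Chst9, a sulfotransferase gene, and Asic2, an acid-sensing ion channel gene, were at 17.3 and 28.4 CPM there and at most 2.50 CPM in the other classes. The Asic2 peak was at 7.28 CPM in nephron progenitor-like nuclei of Enl-T1, for a log2 ratio of -1.96 (95% interval -2.25 to -1.68).

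The nephron segments each had peaks of their own. A peak in Rec114 was at 64.5 CPM in podocyte-like nuclei and next highest in proximal tubule-like nuclei, at 6.87, and podocyte-led peaks in Olfml2b and Mast4 were at 47.1 and 36.6 CPM. Proximal tubule-led peaks lay in Cabcoco1 (35.2 CPM), Mtor (19.2) and Serinc5 (16.4). Distal tubule-led peaks lay in Kcnc2 (18.6), Klf9 (14.8) and the overlapping genes Iqschfp and Schip1 (14.4). The early nephron epithelium-led peaks, in Adtrp, Hecw2 and Sgcd, were at 23.8, 15.2 and 12.0 CPM, with the next class at 2.87 to 5.30 CPM, so their lead was smaller than those of the named progenitor, podocyte and proximal tubule peaks.

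Outside the nephron the leads were larger. The stroma-led peak of Cntn6, a neural adhesion gene, was at 7.03 CPM in Enl-WT and at 8.99 in Enl-T1, with at most 7 counts in any other class of Enl-WT. A stroma-led peak in Alx1, a homeobox gene of mesenchyme, was at 32.4 and 34.9 CPM. In ureteric epithelium-like nuclei, peaks in Ndst4, a heparan sulfate sulfotransferase gene, and Ptpre, a tyrosine phosphatase gene, were at 16.1 and 16.3 CPM in Enl-WT and at 14.7 and 14.2 CPM in Enl-T1. Endothelial-led peaks lay in Adam19 (50.4 CPM), Saysd1 (47.6) and Erg (46.6), the last an endothelial transcription factor. The Erg peak was alike in both libraries in endothelial-like nuclei, with a log2 ratio of -0.08 (-0.43 to 0.26), while Adam19 and Saysd1 were lower in Enl-T1, at -1.08 (-1.53 to -0.66) and -0.93 (-1.39 to -0.53).

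**Figure D1:**
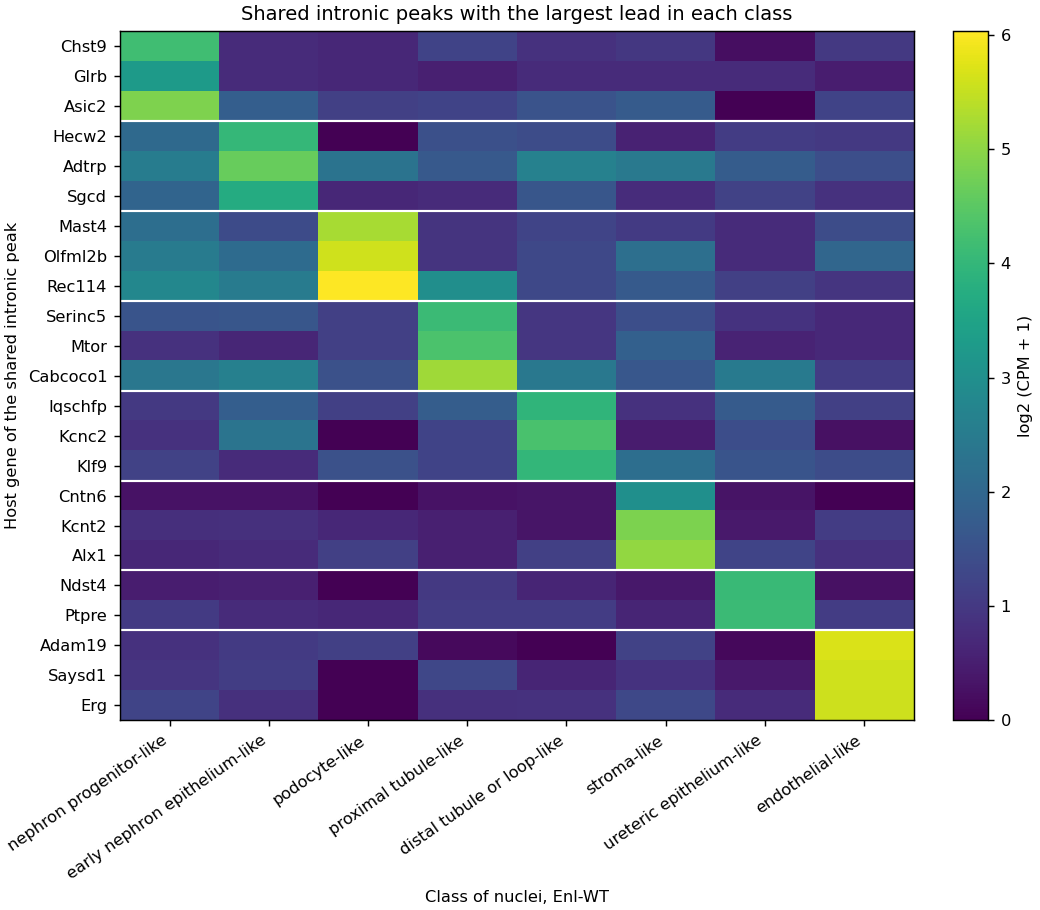
Levels in Enl-WT, as log2 (CPM + 1), of the 3 shared intronic peaks with the largest lead in each of 8 classes of nuclei (2 are shown for ureteric epithelium), 1 row per peak named by its host gene and 1 column per class. Bright cells form a diagonal: each peak is high in its own class, from 8.75 CPM in nephron progenitor-like nuclei (Glrb) or 7.03 in stroma-like nuclei (Cntn6) to 64.5 CPM in podocyte-like nuclei (Rec114), and low in the other columns.

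The class that led a peak was mostly the same in both libraries. Over the 4 large classes, 25865 of 32609 shared intronic peaks (79.32%) had the same leading class in Enl-WT and Enl-T1, against 68.9% of promoter peaks and 78.89% of intergenic peaks. Of the 14970 with a lead of at least 2-fold in Enl-WT, 14465 (96.63%) were led by the same class in Enl-T1. That share was 95.45% for nephron progenitor-led peaks, 97.34% for stroma-led, 97.39% for ureteric epithelium-led and 96.52% for endothelial-led peaks. The most frequent changes of lead were from nephron progenitors to endothelium (84 peaks) or ureteric epithelium (74) and from stroma to nephron progenitors (73).

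Motif letters followed the class that led a peak. A window of 300 bp at the centre of each pair's overlap was searched on both strands for 23 short motifs, and a match is a description of letters, not a binding site. The windows had a median GC content of 48.33%, as in intergenic peaks and below the 60.33% of promoter peaks. Letters of AP-1 (TGANTCA) were in 11.64% of the shared intronic windows, against 10.39% of the windows of all shared peaks and 5.89% of promoter windows, and those of GATA factors (AGATAA) in 15.07%, 13.25% and 6.06%. SP/KLF letters (CCCCGCCC), common at promoters, were in 2.66%, 7.55% and 22.4%.

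In several classes, letters of regulators known from the lineage were in more of the peaks led at least 2-fold by that class in Enl-WT than of all shared intronic peaks. HNF1 letters (GTTAATNAT), for the regulators of tubule genes, were in 7.12% of proximal tubule-led windows and 1.51% of all shared intronic windows, but in 1 of 126 distal tubule or loop-led windows (0.79%). ETS letters (CAGGAAGT), for endothelial regulators, were in 13.4% of endothelial-led windows against 4.43%, and SOX letters (CATTGTT) in 9.41% against 4.61%. SIX2-type letters (GAAANCTGA), for the progenitor factor Six2 and its relatives, were in 6.94% of nephron progenitor-led windows against 2.97%. TCF/LEF letters (CTTTGAT), for the factors of the Wnt pathway, were in 17.5% of the 120 early nephron epithelium-led windows against 5.29%.

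Podocyte-led windows held letters of several podocyte regulators. An E-box bound by TCF21 (ACAGCTG) was in 26.3% of them against 12.9% of all shared intronic windows, WT1 letters (CTCCCAC) in 20.1% against 10.9%, and MAF letters (TGCTGAC) in 13.4% against 6.57%. Stroma-led windows held the E-box in 18.5%, GATA letters in 20.5% and posterior HOX letters (CCATAAA) in 11.04%, the last against 6.71%. Their median GC content was 44%, the lowest of the 8 sets, against 48.33% of all, and HOX and GATA letters are rich in A and T; the class-led sets were not compared at equal GC. Ureteric epithelium-led windows held AP-1 letters in 22.2% and GATA letters in 25.9%. Of the matches in shared intronic windows, those of HNF1 overlapped another motif in 10.3%, those of AP-1 in 5.07%, the E-box in 3.85%, TEAD (ACATTCC) in 3.80%, WT1 in 2.63%, GATA in 1.78% and posterior HOX in 1.26%.

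**Figure D2:**
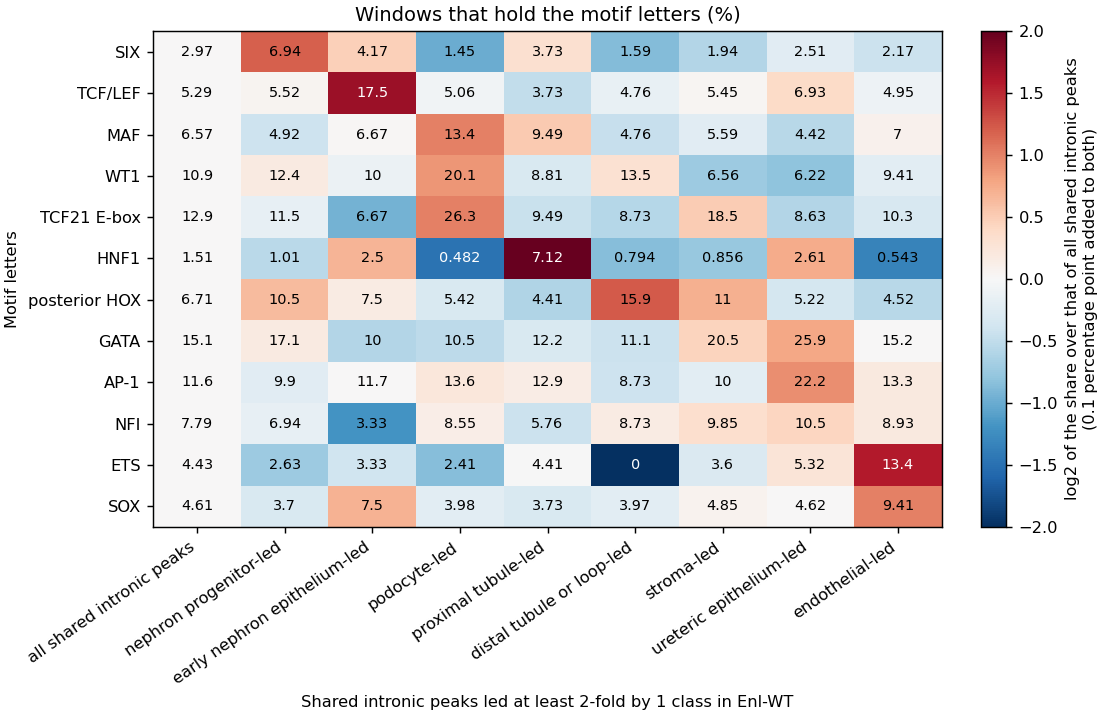
Percentage of 300 bp windows that hold each of 12 motifs' letters (rows), for all shared intronic peaks and for those led at least 2-fold by 1 class in Enl-WT (columns), coloured by the log2 of the share over that of all shared intronic peaks. The strongest red cells are HNF1 in proximal tubule-led (7.12%), TCF/LEF in early nephron epithelium-led (17.5%) and ETS in endothelial-led windows (13.4%).

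Between the libraries, intronic peaks were spread more widely than promoters around the same centre. Over all kept nuclei the median log2 ratio of Enl-T1 over Enl-WT was 0.05 for the 32617 shared intronic peaks, and the 5th and 95th percentiles lay 1.51 apart, against 0.87 for promoter peaks and 1.51 for intergenic peaks. At least 2-fold higher in Enl-T1 were 1095 (3.36%), where 3.03% of all 109533 shared autosomal peaks were, and at least 2-fold lower were 388 (1.19%), where 0.923% of all were. Among promoter peaks the shares were 0.66% and 0.65%, and among intergenic peaks 4.11% and 0.88%. The shares of intronic peaks were thus close to those of all shared peaks and above those of promoters. Dividing by peak width in each library shifts the median of all shared peaks from 0.04 to 0.17. It also leaves fewer intronic peaks at least 2-fold lower, a count given in the last section. No direction is therefore read from ratios nearer to 0 than 0.17. The median of intronic peaks also fell with depth. It was 0.30 at 200 to 400 summed counts, 0.13 at 400 to 800 and 0.00095 at 800 or more. In stroma-like nuclei it went from 0.22 at 50 to 100 counts to -0.04 at 800 or more. Peaks with few counts thus stood higher in Enl-T1, which the limit of 0.17 does not cover. The numbers of higher and lower peaks were not matched for depth. Promoter peaks held more counts each, with a median of 1638 in Enl-WT against 510. In peaks with 400 to 800 counts in the summed libraries, the span was 1.45 for intronic and 1.33 for promoter peaks. At 800 counts or more it was 1.53 and 0.80, but that bin has no upper limit and depth is not alike in it. In nephron progenitor-like nuclei the spans at 400 to 800 counts were 2.29 and 1.29.

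Nephron progenitor-like nuclei had the widest spread. Of 31569 peaks with at least 50 counts there, 2146 (6.80%) were at least 2-fold higher in Enl-T1 and 1683 (5.33%) at least 2-fold lower, where 5.92% and 4.02% of all shared peaks were, with a median log2 ratio of -0.03 and a span of 2.17. Promoter peaks in these nuclei stood at 1.35% and 1.81%, with a span of 1.21. In stroma-like nuclei, 1256 of 32124 (3.91%) were higher and 474 (1.48%) lower, where 3.31% and 1.26% of all shared peaks were, with a span of 1.62. For ureteric epithelium-like nuclei, which lie outside the Wt1-Cre lineage, the counts were 1082 (5.04%) and 280 (1.30%) of 21456, where 3.93% and 1.07% of all were. In endothelial-like nuclei 556 (4.21%) and 491 (3.72%) of 13195 passed, where 3.18% and 2.6% of all did. Both of the last classes hold fewer nuclei, and thus noisier ratios.

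**Figure D3:**
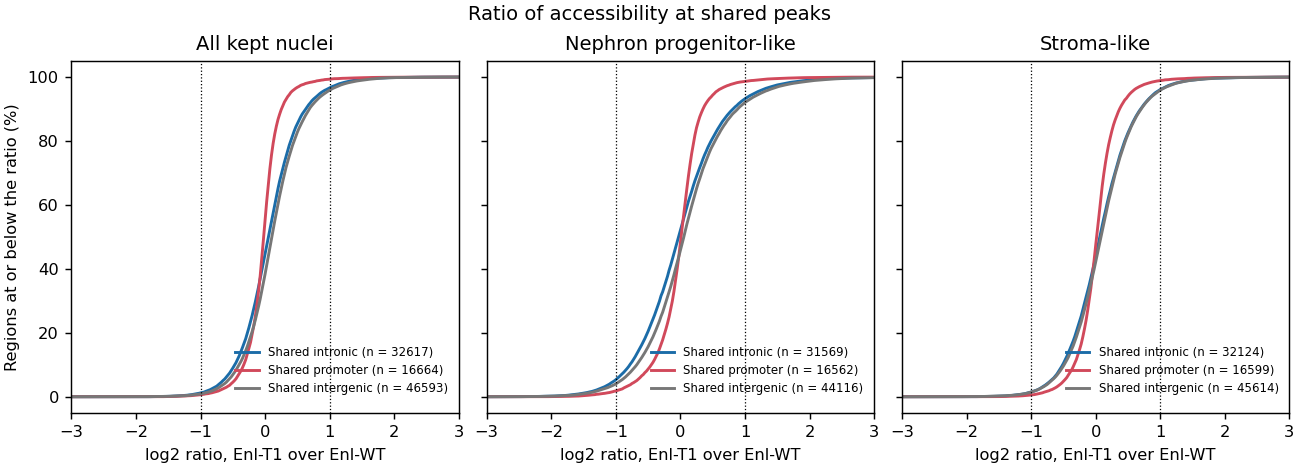
Cumulative share of shared intronic, promoter and intergenic peaks (vertical axis, percent) at or below each log2 ratio of Enl-T1 over Enl-WT (horizontal axis), in all kept nuclei, in the nephron progenitor-like class and in the stroma-like class, with dotted lines at 2-fold. The promoter curve is the steepest in each panel, and the intronic curve is widest in nephron progenitor-like nuclei, where its 5th to 95th percentile span is 2.17.

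Over the whole library, the ratio moved with which class led the peak. Of the 388 lower peaks, 159 (41.0%) were led by proximal tubule-like nuclei in Enl-WT, a class that leads 7.62% of all shared intronic peaks and held 677 Enl-WT and 9 Enl-T1 nuclei. Distal tubule-led peaks made up another 12.6%, against 7.64% of all, and podocyte-led peaks 14.4%, close to their 14.06% of all. Among the 1094 higher peaks with enough counts for a lead, stroma led 34.6% and nephron progenitors 32.6%, against 22.0% and 16.5% of all. Within classes, 186 of the 374 lower peaks that could be read in nephron progenitor-like nuclei were also 2-fold lower there, and 162 of the 388 were 2-fold lower in none of the 4 classes. Of the 1095 higher peaks, 740 of 1037 were also 2-fold higher in nephron progenitor-like nuclei and 428 of 1055 in stroma-like nuclei, and 141 in none of the 4. In a whole library, fewer nuclei of a class and less open chromatin per nucleus cannot be told apart.

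The lowest named peaks of the whole library were of that kind. A peak in Grid1, a glutamate receptor delta gene, was at 14.8 CPM in Enl-WT and at 4.37 in Enl-T1, for a log2 ratio of -1.76 (-1.98 to -1.55). In Enl-WT it was at 90.8 CPM in proximal tubule-like and 43.6 in early nephron epithelium-like nuclei and at 2.44 in nephron progenitor-like nuclei, where its ratio was -0.12 (-0.79 to 0.56). Peaks in Retreg1, an endoplasmic reticulum-phagy receptor gene, Sufu, a brake on Hedgehog signalling, Prkag2, a subunit of the AMP-activated kinase, and Arhgap26, a GTPase-activating protein gene, had whole-library ratios of -1.80 to -1.71, and each was highest in proximal tubule-like or distal tubule or loop-like nuclei of Enl-WT.

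The highest named peaks of the whole library were also high within nephron progenitor-like nuclei. The Fam114a1 peak at chr5:65011763-65012528 had 332 counts in Enl-WT nuclei and 2200 in Enl-T1 nuclei, or 2.71 and 21.2 CPM, for a log2 ratio of 2.96 (2.73 to 3.21). It was open in 1.86% of Enl-WT and 7.57% of Enl-T1 barcodes. Within nephron progenitor-like nuclei it was at 3.83 and 42.1 CPM, a ratio of 3.45 (3.07 to 3.87), and within stroma-like nuclei at 2.78 and 9.05 CPM, a ratio of 1.70 (1.25 to 2.20). A peak in Dock2, a guanine nucleotide exchange factor gene of leukocytes, was at 3.67 and 20.01 CPM overall and likewise higher in both classes, at 2.65 and 1.35. A peak in Mpp5, a polarity scaffold gene, was higher in nephron progenitor-like nuclei, at 2.35 (1.91 to 2.84), and at 0.01 (-1.22 to 1.24) in stroma-like nuclei. Peaks in Wwox and Csmd1 were at 2.27 and 2.26 overall and 2.06 and 1.79 in nephron progenitor-like nuclei.

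In nephron progenitor-like nuclei, the peaks with the highest ratios were near 0 in Enl-WT, which a ranking by the ratio favours. A Kcnt2 peak at chr1:140409227-140410268, in a sodium-activated potassium channel gene, had 30 Enl-WT and 465 Enl-T1 counts, or 0.99 and 12.4 CPM, for a log2 ratio of 3.63 (2.90 to 4.51). In stroma-like nuclei the same peak stood at 34.8 and 34.5 CPM. Peaks in Galnt13, an O-glycosylation gene, and Gmds, a gene of GDP-fucose synthesis, were at 1.06 and 1.29 CPM in Enl-WT against 12.3 and 13.8 in Enl-T1. They too were higher in stroma-like than in nephron progenitor-like nuclei of Enl-WT, at 5.79 and 4.19 CPM. The Oxr1 peak, with 14 Enl-WT and 205 Enl-T1 counts, had a ratio of 3.52 (2.47 to 4.91) and was highest in early nephron epithelium-like and ureteric epithelium-like nuclei of Enl-WT, at 7.49 and 7.41 CPM.

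At the other end, the peaks with the lowest ratios were open in nephron progenitor-like nuclei of Enl-WT. The peak in the overlapping genes Cwc27 and Srek1ip1 was at 6.28 CPM in Enl-WT and at 1.12 in Enl-T1, for a log2 ratio of -2.47 (-3.24 to -1.79). In Bicra, a gene of a BAF chromatin-remodelling subunit, the peak had 452 and 110 counts, or 14.9 and 2.95 CPM, a ratio of -2.34 (-2.79 to -1.91). Its level in stroma-like nuclei was 1.93 and 1.94 CPM. Peaks in Mindy4, a deubiquitinase gene, and Tnik, a kinase gene, had ratios of -2.32 and -2.30. The Car12 peak, in a carbonic anhydrase gene, was at -2.23 (-2.92 to -1.65) in nephron progenitor-like nuclei and 0.51 (0.05 to 0.93) in stroma-like nuclei.

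In stroma-like nuclei the largest ratios belonged to peaks that were open in other classes of Enl-WT. A Gabrr3 peak, in a GABA receptor gene, was at 0.61 CPM in stroma-like nuclei of Enl-WT and 7.05 in Enl-T1, for a log2 ratio of 3.51 (2.65 to 4.58), and at 12.5 and 34.8 CPM in nephron progenitor-like nuclei. Peaks in Kl, the klotho co-receptor gene of FGF23, and Nell1, a secreted factor gene, had stroma-like ratios of 2.60 and 2.15. On the low side, the Adamts16 peak, in a metalloprotease gene, was at 4.93 and 1.499 CPM, a ratio of -1.71 (-2.41 to -1.09), and at -1.52 in nephron progenitor-like nuclei. Peaks in Rfx8 and Fgd6 were at -1.67 and -1.46 in stroma-like nuclei and at -0.18 and 0.09 in nephron progenitor-like nuclei.

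Across peaks, the ratios in both classes were only loosely alike. Over the 12703 shared intronic peaks with at least 200 counts in each class, the Pearson correlation of the log2 ratios was 0.36, a description across peaks that share libraries. In nephron progenitor-like nuclei 683 of them were at least 2-fold higher in Enl-T1 and in stroma-like nuclei 288, with 105 in both, 15.4% of the first and 36.5% of the second. Lower were 671 and 168, with 50 in both, 7.45% and 29.8%. Each of these overlaps was larger than the share of all 12703 peaks that passed in the other class. In 6 peaks the class pair went opposite ways with nephron progenitors higher, and in 6 with nephron progenitors lower.

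The peaks past 2-fold in nephron progenitor-like nuclei depended on which Enl-WT cluster was used. Against Enl-WT cluster 4 alone, 1569 of 15310 peaks with enough counts were higher, and against cluster 10 alone 1319, with 737 in both, 47.0% and 55.9%. Lower were 924 and 789, with 217 in both, 23.5% and 27.5%. More of the higher than of the lower peaks were shared by both reference clusters, but the higher sets were also larger, which raises their overlap. Both comparisons use the same Enl-T1 nuclei, which ties their results together. The difference in overlap is therefore not read. The stroma-like counts also differed when only clusters with at least 100 nuclei of each library were kept, with 774 higher and 736 lower.

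Peaks lower in nephron progenitor-like nuclei of Enl-T1 were often progenitor or podocyte peaks of Enl-WT. Of the 1098 lower peaks with at least 200 counts there, 38.0% were led by nephron progenitor-like nuclei of Enl-WT and 28.8% by podocyte-like nuclei, against 25.7% and 17.5% of all 20069 such peaks. The Enl-WT nephron progenitor counts enter both the lead and the ratio. The class shares of the lower and of the higher peaks are therefore tied in part to the ratio by construction. Nephron progenitors led 18.2% of the higher peaks. Of the 1292 higher peaks, stroma led 25.9%, distal tubule or loop 14.6% and early nephron epithelium 12.6%, against 12.5%, 8.02% and 9.22% of all. Proximal tubule led 6.73% of the higher peaks, against 7.93% of all. Of the 3 named distal tubule-led peaks, those of Kcnc2 and of Iqschfp and Schip1 were at 0.83 and 0.99 CPM in nephron progenitor-like nuclei of Enl-WT and 3.59 and 3.29 in Enl-T1, while that of Klf9 was at 1.288 and 1.285.

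Posterior HOX letters were in more of the higher than of the lower peaks, and the share with the TCF21 E-box depended on which Enl-WT cluster was compared. In nephron progenitor-like nuclei, CCATAAA was in 14.2% of the 1292 higher windows, 6.81% of all 20069 and 4.19% of the 1098 lower windows. The E-box ACAGCTG went the other way, at 8.13%, 12.4% and 24.9%, as did the WT1 letters CTCCCAC at 7.74%, 12.7% and 18.5%. Against Enl-WT cluster 4 alone, the E-box was in 7.02% of higher and 27.6% of lower windows, but against cluster 10 alone it was in 10.14% and 12.2%, so the large difference rests on cluster 4. HOX letters were in 13.1% of higher and 4.22% of lower windows against cluster 4 and in 14.4% and 3.46% against cluster 10. When nuclei were clustered on components 2 to 15 of the latent semantic indexing (LSI) of their peak counts in place of 2 to 30, and the class held 94 Enl-T1 nuclei, HOX letters were in 7.49% and 6.65%, and the E-box order turned round, at 19.01% and 13.01%. TEAD letters (ACATTCC) stood at 5.495%, 6.09% and 9.93%. In higher and lower windows they were at 6.14% and 6.80% against Enl-WT cluster 4 alone and at 4.84% and 12.5% against cluster 10 alone. With components 2 to 15 they were at 5.69% and 6.83%, so the TEAD difference also depended on the nuclei compared. In higher, all and lower windows, SIX2-type letters, for Six2 and its relatives, were at 3.10%, 3.51% and 5.10%, and HNF1 letters at 2.40%, 1.07% and 0.55%.

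Base content differed between these sets, with a median GC of 45% in the higher, 49.33% in all and 51.67% in the lower windows. Among windows of 45 to 50% GC, HOX letters were in 11.8%, 7.82% and 4.55% and the E-box in 10.6%, 11.5% and 23.8%, so the order stood within that bin. The same letters split the shared intergenic peaks, with HOX letters in 15.9%, 6.79% and 3.82% and the E-box in 7.84%, 11.5% and 26.9%, so the split was not particular to introns. For peaks past 2-fold against each of the Enl-WT clusters, HOX letters were in 15.1% of the 737 higher windows, and the E-box and WT1 letters were in 18.4% and 27.2% of the 217 lower windows. In the sets not split by cluster, WT1 letters at 45 to 50% GC were in 8.41%, 11.5% and 17.1% of higher, all and lower windows. At 40 to 45% GC they were in 6.68%, 7.56% and 6.67% (7 of 105), so the WT1 difference was not the same at equal GC.

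In stroma-like nuclei, HOX letters were in more of the higher intronic windows, and TEAD and WT1 letters in more of the lower ones. HOX letters were in 12.7% of the 553 higher windows, 7.17% of all 20171 and 4.38% of the 274 lower windows. In intergenic windows they were in 12.8%, 7.27% and 8.43%, so the lower set did not fall below all. Within intronic windows of 40 to 45% GC they were in 15.6%, 10.4% and 12.3% (7 of 57), and at 45 to 50% GC in 7.98%, 7.14% and 3.45% (3 of 87), so the HOX difference was not the same at equal GC. TEAD letters, for the DNA-binding partners of YAP, were in 3.62%, 7.005% and 16.4%, and in 5.21%, 6.78% and 19.1% of intergenic windows. WT1 letters were in 7.96%, 10.7% and 17.9% of intronic and 8.88%, 10.11% and 15.2% of intergenic windows. The E-box did not split these peaks in the same way, at 11.2%, 15.0% and 11.7%. With only the clusters that hold at least 100 nuclei of each library, HOX letters were in 9.59% of 219 higher and TEAD letters in 11.2% of 269 lower windows.

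**Figure D4:**
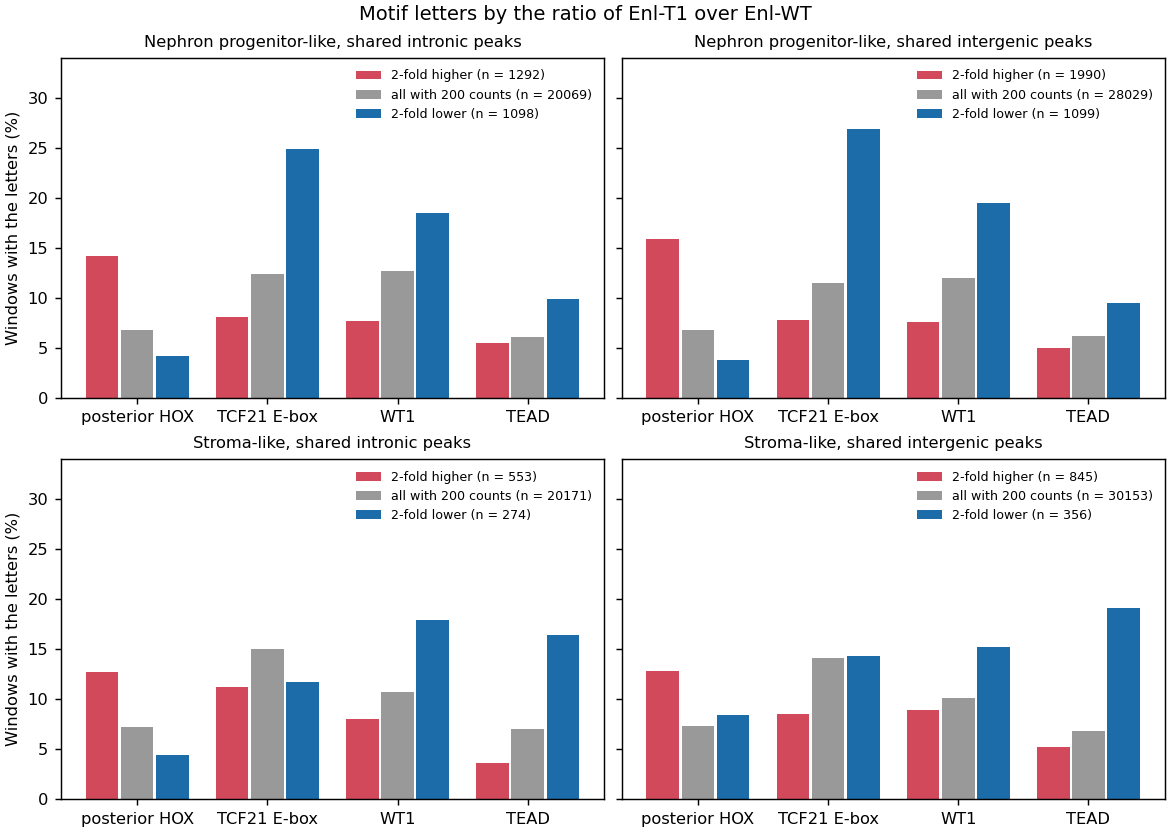
Percentage of 300 bp windows with the letters of posterior HOX, the TCF21 E-box, WT1 and TEAD (bars from 0) among peaks at least 2-fold higher in Enl-T1 (red), all with at least 200 counts (grey) and at least 2-fold lower (blue), for shared intronic and intergenic peaks of the nephron progenitor-like (top) and stroma-like (bottom) classes. In nephron progenitor-like nuclei the intronic red bar is the tallest of the 3 for HOX (14.2%) and the blue bar for the E-box (24.9%, or 12.2% against Enl-WT cluster 10 alone), and in stroma-like nuclei the blue bar is the tallest of the 3 for WT1 (17.9%) and TEAD (16.4%).

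Ratios at the promoters of the host genes were only weakly correlated with those over their introns. For 4718 genes with enough counts at both in nephron progenitor-like nuclei, the log2 ratio over a gene's shared intronic peaks and that over its promoter peaks had a Pearson correlation of 0.18, a description across genes. The SD over genes was 0.46 for intronic peaks and 0.27 for promoters. In 108 genes the intronic peaks together were at least 2-fold higher in Enl-T1, and 2 of them had promoters past 2-fold, with a median promoter ratio of 0.07. In 109 genes they were at least 2-fold lower, again with 2 promoters past 2-fold and a median of -0.05. Of all single promoter peaks in these nuclei, 1.35% were at least 2-fold higher and 1.81% lower. These few promoters are therefore not read as fewer or more than among promoters in general. For stroma-like nuclei, 31 and 13 of 4628 genes passed, with 1 and 0 promoters and a correlation of 0.14. Of single promoter peaks there, 1.12% were higher and 0.54% lower.

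**Figure D5:**
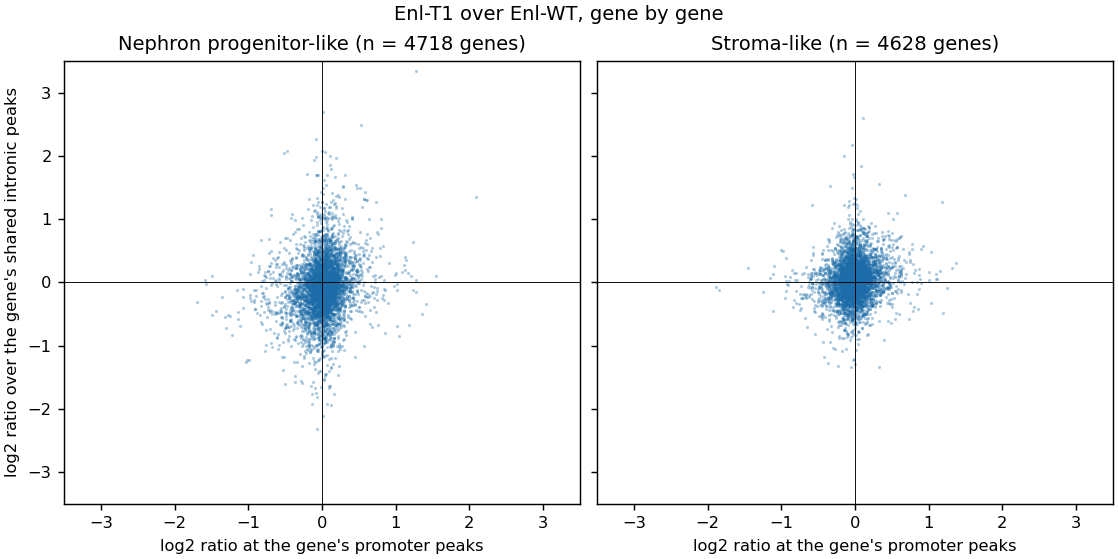
The log2 ratio of Enl-T1 over Enl-WT summed over a gene's shared intronic peaks (vertical axis) against that over its promoter peaks (horizontal axis), 1 point per gene, in nephron progenitor-like (4718 genes) and stroma-like nuclei (4628 genes), both axes to the same scale. The cloud is taller than it is wide, with SDs over genes of 0.46 and 0.27 and a Pearson correlation of 0.18 in nephron progenitor-like nuclei.

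Peaks in genes of nephron progenitor identity had a median ratio close to that of all shared intronic peaks. In nephron progenitor-like nuclei, 6.80% of all those peaks were at least 2-fold higher, 5.33% at least 2-fold lower and 47.81% above 0, which are the shares to set beside the list counts that follow. Of 18 listed genes 12 hosted 39 shared intronic peaks, with a median log2 ratio of -0.15 in nephron progenitor-like nuclei, 2 at least 2-fold higher, 3 lower and 14 above 0, where the median of all shared intronic peaks was -0.03. The Six4 peak, in a homeobox gene, was at 30.2 CPM in Enl-WT and at 37.1 in Enl-T1, and the peak with the most counts in Pax2, a paired-box regulator of the kidney, at 37.7 and 35.4. Summed over a gene's peaks, Pax2 was at 59.4 and 47.9 CPM, a ratio of -0.31 (-0.45 to -0.18). The sums of Itga8, an integrin gene of the mesenchyme, Bmp7, a survival signal for progenitors, and Eya1, a partner of Six2, were at -0.54 (-0.77 to -0.32), -0.42 (-0.57 to -0.27) and -0.34 (-0.54 to -0.14), and that of Meox1, a homeobox gene, at 0.51 (0.28 to 0.76). The 3 peaks within Wt1 itself were at 0.06 (-0.18 to 0.29).

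Commitment genes pointed both ways. 10 of 17 listed genes hosted 67 peaks, with a median of -0.05 in nephron progenitor-like nuclei and 5 peaks past 2-fold in each direction, near the shares of all such peaks. Wnt4, the signal that drives the mesenchyme to epithelium, was at 33.3 CPM over its 2 peaks in Enl-WT and at 16.6 in Enl-T1, a ratio of -1.002 (-1.21 to -0.80). Notch1, a receptor of nephron patterning, was at -0.69 (-0.87 to -0.51). In the other direction, Cdh6, an early nephron cadherin, was at 19.2 and 49.3 CPM over 4 peaks, 1.36 (1.17 to 1.55), Lef1, a Wnt pathway transcription factor, at 0.70 (0.52 to 0.88) and Pax8, a marker of early epithelium, at 0.36 (0.18 to 0.56). In stroma-like nuclei Cdh6 was at 0.25 and Lef1 at -0.04.

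Among the segment lists, the distal one stood highest in nephron progenitor-like nuclei. Its 99 peaks with enough counts, in 9 of 14 listed genes, had a median of 0.34, with 16 at least 2-fold higher and 2 lower, and 69 above 0. Mecom, a zinc finger regulator gene of the distal nephron, held 46 of the 102 listed peaks and Esrrg, a nuclear receptor gene, 34, so most of the list is these genes. The Mecom sum was at 162 CPM in Enl-WT and at 242 in Enl-T1, 0.57 (0.50 to 0.65), and the Esrrg sum was at 0.07 (-0.0043 to 0.15). In stroma-like nuclei the Mecom sum was at -0.15. Proximal tubule genes had 28 such peaks with a median of -0.05, 1 higher and 0 lower, and the podocyte list 111 with a median of -0.11, 7 higher and 8 lower. Lmx1b, a podocyte transcription factor gene, was at 226 and 185 CPM over 11 peaks, -0.29 (-0.35 to -0.22).

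Genes of the other lineages were read in nephron progenitor-like nuclei as well. The ureteric list had the lowest median, -0.35 over 52 peaks in 13 of 21 genes, with 5 past 2-fold each way, and the largest host, Gfra1, a GDNF co-receptor gene, was at -0.66 (-0.75 to -0.57). Grhl2, an epithelial regulator gene, and Wnt9b, the ureteric signal for nephron induction, went the other way at 0.96 (0.76 to 1.16) and 0.84 (0.58 to 1.10). In ureteric epithelium-like nuclei Gfra1 was at -0.34, Grhl2 at 0.08 and Wnt9b at -0.13. The stroma list of 210 peaks had a median of -0.02, with 16 higher and 7 lower, including Pdgfrb, a growth factor receptor of mesenchyme, at -1.17 (-1.43 to -0.91) and Nfia, a nuclear factor I gene, at 0.49 (0.41 to 0.58). In stroma-like nuclei the stroma list stood at 0.08, with 6 higher and 1 lower of 212. Endothelial genes had 89 peaks with a median of -0.13, 5 higher and 4 lower, and Tek, an angiopoietin receptor gene, was at 11.9 and 3.19 CPM, -1.90 (-2.33 to -1.46), against -0.01 in endothelial-like nuclei.

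Genes of ENL and its elongation partners hosted 72 peaks, in 11 of 17 listed genes. Their median was 0.19 in nephron progenitor-like nuclei, with 11 higher and 4 lower. In stroma-like nuclei it was 0.05, against 0.06 for all shared intronic peaks, with 3 higher and 2 lower, where 3.91% and 1.48% of all were. Ell2, an elongation factor gene, was at 3.93 and 11.2 CPM over 2 peaks, 1.51 (1.08 to 1.94), Aff1, a scaffold of the super elongation complex, at 0.40 (0.31 to 0.48) over 18 peaks and Mllt3, the closest relative of ENL, at 0.22 (0.11 to 0.34). Aff3, a relative of Aff1 with 24 peaks, was at -0.04 (-0.12 to 0.04). The single peak in Mllt1 itself was at 1.39 and 1.47 CPM, 0.08 (-0.76 to 1.00).

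Class leads varied with the distance to the TSS, and the median ratio did so in all nuclei and in some of the classes. The median log2 ratio over all nuclei was -0.02 for the 2638 peaks at 2 to 5 kb from a TSS and 0.17 for the 5922 beyond 100 kb, and in nephron progenitor-like nuclei it was -0.09 and 0.13. In endothelial-like nuclei both were 0.0035, and in ureteric epithelium-like nuclei they were 0.09 and 0.06. The distance bins were not matched for depth, and the sign of a median nearer to 0 than 0.17 is not read. The share led at least 2-fold by 1 of the 8 classes in Enl-WT was 22.4%, 24.1%, 26.2%, 29.4% and 33.9% from the nearest to the farthest of the 5 distance bins. First-intron peaks had a median of -0.0036 and later-intron peaks 0.07 over all nuclei.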

How the data were processed

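Counts per peak and barcode and a peak list were deposited by the authors for each of the 2 libraries, made with Cell Ranger ATAC 2.1.0 on mm10 per the labels, with peaks called in each library alone. The counts are cut sites: 80.05% and 81.15% of the values equal 2, so a fragment was taken as 2 counts for intervals (exact conditional binomial, 95%). The study's own filters on nuclei need fragment files and were not applied. Nuclei with 2000 to 100000 counts were kept, and doublets were not removed.

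Peaks were placed with GENCODE M21, and sequence came from GRCm38.p6, whose chromosome lengths hold all peaks. Levels are CPM over counts in shared peaks of the class and library, and ratios are log2 of Enl-T1 over Enl-WT after adding 0.5 counts, for peaks with at least 50 counts in all (200 for named peaks and motif sets). Because each group is 1 library, no test was run and no p-value is given.

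Nuclei were clustered on 78902 shared peaks, none of them shared intronic peaks, open in at least 0.5% of nuclei (LSI components 2 to 30 at unit length, 15 neighbours, Leiden resolution 1), giving 24 clusters. A cluster took a name when the mean log2 rise of that class's markers was at least 0.4 with 3 or more raised, led the next lineage by 0.1, and no other class had more markers among its top 10 genes above 50 CPM. Of 91 markers 81 had a peak. The scaling of components, that floor (first 20 CPM, under which clusters 2, 4, 14 and 21 stayed unnamed) and a limit of 3 times the median share of the 100 strongest peaks were set after clusters were seen and before ratios were formed. Clusters 15, 16, 19, 20 and 23 stayed unnamed. Immune-like nuclei were left out.

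Peaks were named by rule: the 3 with the largest lead in each class, the 5 (stroma 3) highest and lowest ratios among 1 to 1 pairs with 80% reciprocal overlap, the 2 highest by CPM in each host gene list, and the 5 hosts with the most peaks; from the last lists the text gives examples. A peak and a gene that the rules name are not reported here. The summed genes, the motifs carried to the ratio sets (6 of 23), the GC bins, the intergenic comparison and the split by Enl-WT cluster were chosen after values were seen. The peaks and the gene lists were chosen with earlier results of these data known. Scripts were tested on simulated data, and ran in Python 3.11.15 with numpy 2.4.6, scipy 1.17.1, scikit-learn 1.9.0 and leidenalg 0.10.2.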

Additional observations from a re-analysis of the deposited data

Results flagged for a closer look

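These values lie on opposite sides of 0 in the nephron progenitor-like class and the stroma-like class, with both counting intervals clear of 0. The difference between the classes was not tested, since each holds 1 library per genotype, and nephron progenitor-like clusters were nearly all of 1 library. Peak-width scaling moves the median of all shared peaks from 0.04 to 0.17, so for Cubn, Tcf4, Robo2, Mllt3, the summed Mecom peaks and any other with a value nearer to 0 than 0.17, the sign of that value is not read.

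Among single peaks, the log2 ratio of Enl-T1 over Enl-WT was 1.11 among nephron progenitor-like nuclei against -0.29 among stroma-like nuclei at the stroma-led Kcnt2 peak, -2.23 and 0.51 in Car12, -1.03 and 2.60 in Kl, and 0.45 and -0.31 at a Mecom peak. Kl had the widest gap. Summed over a gene's shared intronic peaks, it was -0.54 and 0.26 in Itga8, -0.29 and 0.36 in Cdh4, -0.27 and 0.16 in Cubn, -0.29 and 0.38 in Ptpro, -0.36 and 0.68 in Npnt, and -0.20 and 0.15 in Tcf4. The opposite order held in Mecom, at 0.57 and -0.15, in Col4a3 at 0.88 and -0.61, in Robo2 at 0.15 and -0.30, and in Mllt3 at 0.22 and -0.15. Past 2-fold in opposite directions were 6 peaks with nephron progenitors higher and 6 with nephron progenitors lower.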

How the results depend on the processing

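No paired analysis was possible because each group is 1 library, and there was no second replicate to leave out. Of 315 values recomputed under alternatives, 200 kept their direction and size, 112 moved and 3 took the opposite sign. The cause was not tested unless the alternative itself leaves fewer peaks, nuclei or bases.

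The median log2 ratio of nephron progenitor-like nuclei, near 0 at -0.03, was 0.0022 with 1 to 1 pairs of 80% reciprocal overlap, 0.0059 at Leiden resolution 0.5 and 0.057 with LSI components 2 to 15, so no direction is read from it. It was -0.041 with median-of-ratios scaling, -0.015 at resolution 2, -0.00010 with components at unit variance, -0.0051 with a 20 CPM floor, and -0.0073 and -0.0022 against Enl-WT cluster 4 or 10 alone. The last 4 of these settings, and the stroma-like ones by cluster below, were chosen after seeing the data. With components 2 to 15, 3937 peaks were higher and 6079 lower there and 74.2% of peaks kept their leading class.

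The whole-library median was 0.043 with at least 5000 counts per nucleus, 0.014 with median-of-ratios scaling, 0.013 with TMM, 0.080 with 80% pairs and 0.17 per kb of peak, a scaling that moves the median of all shared peaks from 0.04 to 0.17, and it left 166 peaks lower. The 80% pairs, which are fewer, gave 582 higher and 150 lower in all nuclei, 1294 and 868 in nephron progenitor-like and 653 and 164 in stroma-like nuclei. Stroma-like medians were 0.015 (median of ratios), 0.090 (80% pairs), 0.051 (5000 counts) and 0.045 (clusters with 100 nuclei of each library, where 774 were higher and 736 lower). Ureteric epithelium-like medians were 0.044 (median of ratios), 0.116 (80% pairs), 0.046 (resolution 0.5), 0.039 (a lead of 0.2), 0.051 (unit variance) and 0.026 (20 CPM floor), and the endothelial-like median was 0.053 with 80% pairs. The share with the same leading class was 80.01% at 200 counts, 78.9% at resolution 2, 78.2% with unit variance and 75.7% with the 20 CPM floor. The share of counts in these peaks was 16.65% in Enl-T1 with 5000 counts, 16.71% with all barcodes, and 15.28% and 16.65% in Enl-WT and Enl-T1 after 718 and 1277 doublet-like nuclei were removed. The share of nuclei open at the median peak was 0.632% and 0.646% at 1500 fragments, 1.61% and 1.64% at 4000, and 2.61% and 1.79% unthinned, in Enl-WT and Enl-T1.

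Motif shares moved with the length searched, and are given for windows of 150 bp and for whole Enl-WT peaks. They were, in that order, HNF1 0.769% and 3.78%, HNF4 0.199% and 1.31%, AP-1 6.33% and 29.8%, CTCF 1.27% and 3.54%, GATA 7.69% and 44.2%, ETS 2.42% and 10.7%, TEAD 3.61% and 17.1%, FOX 2.87% and 15.9%. They were also SIX2-type 1.56% and 8.05%, TCF/LEF 2.68% and 16.3%, posterior HOX 3.6% and 17%, WT1 5.87% and 25.6%, TCF21 E-box 7.15% and 28.4%, MAF 3.37% and 17.3%, NFI 4.08% and 20.3%, TFAP2 5.06% and 22.8%. For the rest they were GRHL 0.107% and 0.334%, RUNX 3.42% and 21.1%, POU 0.733% and 5.84%, MEF2 0.337% and 2.56%, SOX 2.28% and 15.2%, EBF 2.57% and 14.4%, SP/KLF 1.49% and 5.99%. The HOX shares of higher and lower nephron progenitor-like peaks were 7.49% and 6.65% with components 2 to 15, where the class held 94 Enl-T1 nuclei, so the difference was lost. Those of the E-box were 7.02% and 27.6% against Enl-WT cluster 4 alone, 10.14% and 12.2% against cluster 10 alone and 9.54% and 12.8% with the 20 CPM floor, and the order turned round with components 2 to 15, at 19.01% and 13.01%. In peaks with few counts, a ratio within its interval of 0 is not a difference that this depth can show.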
